A study of Mus musculus and Rattus norvegicus with 11 samples.

Results

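The immunoglobulin constant region genes of mouse peripheral nerve were followed in single-cell RNA-seq data, together with Jchain. The 10 genes taken were the heavy chain genes Ighm, Ighd, Ighg2b, Ighg2c and Igha, the light chain genes Igkc, Iglc1, Iglc2 and Iglc3, and Jchain, out of 31053 mouse genes in the feature table, and each was found there by its symbol. The cells came from sciatic nerves and brachial plexus of perfused mice, were sorted as live cells after enzymatic digestion and myelin removal, and were captured with droplet 3′ chemistry. The 3 libraries of C57BL/6 mice, which the study used for the undiseased nerve, are numbered 1, 3 and 4 as in their titles. NOD is the non-obese diabetic strain, which is prone to autoimmunity, and its 3 control libraries are numbered 1, 2-1 and 2-2. The last 3 libraries are labelled ICAM-1-/- NOD, that is NOD mice without the endothelial and leukocyte adhesion molecule ICAM-1, and the NOD groups served to examine chronic autoimmune neuritis. None of the labels names a treatment. The sources used here do not give age, sex, disease stage or the number of animals behind a library, and 2 rat libraries of the series were not used here. Libraries 2-1 and 2-2 share a sample number and were summed as NOD control 2 in the tests, apart from 1 alternative that kept them separate, so the 9 libraries stand for 8 samples. Icam1 itself was counted at 81.6, 88.5 and 47.3 CPM (the gene's count scaled to a common total of UMIs) in the C57BL/6 libraries, at 94.5, 44.1 and 55.0 CPM in NOD control 1, 2-1 and 2-2, and at 246, 259 and 254 CPM in the libraries labelled Icam1 knockout. That order goes against the label, the sources used here do not say whether the counted 3′ ends lie outside the deleted part, and these libraries are therefore called knockout-labelled throughout.

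An antibody is built from paired heavy and light chains, and the constant genes encode the ends that do not touch antigen. A naive B cell transcribes Ighm and Ighd from 1 long transcript by alternative splicing, and so carries IgM and IgD on its surface. After stimulation the DNA of the heavy chain locus can be cut and rejoined so that Ighg1, Ighg2b, Ighg2c, Ighg3, Igha or Ighe replaces Ighm, a step called class switching, and each switched cell then makes IgG, IgA or IgE. The light chain is either kappa, from Igkc, or lambda, from the Iglc genes, and most mouse B cells use kappa. Plasma cells are the end stage of the lineage, secrete antibody in bulk and carry far more immunoglobulin mRNA than B cells do, and Jchain joins the IgM and IgA that they secrete into polymers. In droplet data, RNA set free from broken cells also enters the droplets of other cells, so a UMI in a cell of another type does not by itself show that the cell transcribes the gene.

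The heavy chain genes lie together on the minus strand of chromosome 12 in mm10 (GRCm38, GENCODE vM21). From Ighm (113418558 to 113422730) they run through Ighd (113406604 to 113416324), Ighg1 (113325240 to 113330523), Ighg2b (113302965 to 113307933) and Ighg2c (113285325 to 113288932) to Igha (113254830 to 113260236). Igkc is on the plus strand of chromosome 6 (70726435 to 70726966), the lambda genes are on the minus strand of chromosome 16, with Iglc1 at 19061618 to 19062071, Iglc3 at 19065230 to 19065681 and Iglc2 at 19198396 to 19200351, and Jchain is on the minus strand of chromosome 5 (88519809 to 88527891). Because 3′ chemistry counts transcript ends, how well these genes can be told apart depends on the sequence near their ends. The last 90 annotated coding bases before the stop codon, each within 1 exon, are shown for the lambda genes, with capitals at every base that differs from Iglc2 (chr16:19198539-19198628 for Iglc2, chr16:19065368-19065457 for Iglc3, chr16:19061755-19061844 for Iglc1, all minus strand, written 5′ to 3′).
Iglc2: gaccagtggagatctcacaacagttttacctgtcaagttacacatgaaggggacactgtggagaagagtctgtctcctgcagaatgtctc
Iglc3: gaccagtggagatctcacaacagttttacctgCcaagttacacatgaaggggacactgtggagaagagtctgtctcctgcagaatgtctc
Iglc1: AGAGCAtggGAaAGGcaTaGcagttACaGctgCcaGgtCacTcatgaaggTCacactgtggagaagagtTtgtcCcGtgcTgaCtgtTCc
Iglc3 differed from Iglc2 at 1 of these 90 bases and Iglc1 at 29. Over 314 coding bases Iglc2 and Iglc3 were 96.5% identical, and 29 of the 402 windows of 57 bases in the Iglc2 transcript, the length of the read in 1 of the study's sequencing setups, also occurred in Iglc3. Iglc1 shared 0 such windows with either gene. Counts of Iglc2 and Iglc3 are therefore uncertain as a split between the genes, and their sum is firmer than either.

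The same stretch of the IgG genes is shown because the text separates IgG subclasses, with capitals at every base that differs from Ighg2b (chr12:113306392-113306481 for Ighg2b, chr12:113287392-113287481 for Ighg2c, chr12:113328979-113329068 for Ighg1, all minus strand). Ighg1 is not one of the 10 genes and is given wherever switched cells are counted.
Ighg2b: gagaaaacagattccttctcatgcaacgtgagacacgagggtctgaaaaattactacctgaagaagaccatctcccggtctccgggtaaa
Ighg2c: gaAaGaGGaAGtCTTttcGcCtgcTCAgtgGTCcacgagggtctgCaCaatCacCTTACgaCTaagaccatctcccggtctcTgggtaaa
Ighg1: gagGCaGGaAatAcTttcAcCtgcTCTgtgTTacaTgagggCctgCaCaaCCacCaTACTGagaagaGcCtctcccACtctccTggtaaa
Ighg2c differed from Ighg2b at 28 of the 90 bases and Ighg1 at 31. Ighg2b shared 42 of its 1058 windows of 57 bases with Ighg2c, and Ighg1 shared 0 with either. The mm10 reference is built on C57BL/6J, and how NOD alleles of these genes counted against it was not tested.

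The deposited table held 16050 cell barcodes, of which 15672 carried a cell type name from the authors and 1990 were named BC. The name matched the B cell markers: Cd79a stood at 2292, 2407 and 2724 CPM in the BC of C57BL/6, NOD control and knockout-labelled libraries. It was at 0 in the C57BL/6 cells named TC or MC. In NOD control and knockout-labelled libraries it stood at 49.5 and 35.6 CPM in CD4 and 158 and 37.1 CPM in CD8. There it stood at 42.2 and 53.5 CPM in MC and 22.8 and 27.3 CPM in nmSC. There were 98, 33 and 29 BC in C57BL/6 1, 3 and 4, then 7, 367 and 349 in NOD control 1, 2-1 and 2-2, and 347, 381 and 379 in the knockout-labelled libraries. The libraries held 571042 to 6631004 UMIs (unique molecular identifiers, counted once per captured transcript), and the median BC held 538 to 1192. Barcode sequences shared between libraries numbered 325, 38 of them BC. Haemoglobin genes took 0.452% of BC UMIs in knockout-labelled 3 and at most 0.0296% in the other libraries, and their part in the results was not tested. NOD control 1, with 7 BC, entered no test on B cells, and nothing in the labels says whether libraries of a group came from separate animals, so p-values measure the spread between these samples only. Intervals are 95% exact intervals (Clopper-Pearson for shares, Poisson for CPM) and cover counting error only.

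Ighm, the IgM heavy chain, was counted in 1430 of the 1990 nerve B cells. In C57BL/6 1, 3 and 4 it stood at 1373, 1844 and 3489 CPM of BC, in NOD control 1, 2-1 and 2-2 at 4288, 1774 and 1776, and in knockout-labelled 1, 2 and 3 at 2499, 2367 and 5615. The groups overlapped, and knockout-labelled 3 was the highest library. One cell in that library carried 1228 of its 2086 Ighm UMIs, and without this cell and the 1 like it in knockout-labelled 2 the knockout-labelled values were 2499, 2409 and 2375 CPM. In edgeR's quasi-likelihood test of knockout-labelled against C57BL/6 BC, Ighm differed by 0.47 ± 0.42 (log2 fold change and its standard error), with an adjusted p of 0.632. The estimate was -0.07 without the cells rich in immunoglobulin and -0.00 without knockout-labelled 3. Among BC that are not rich in immunoglobulin, an Ighm UMI was seen in 49.0%, 69.7% and 89.7% of C57BL/6 cells, 57.1%, 57.9% and 72.1% of NOD control cells, and 81.8%, 76.8% and 76.7% of knockout-labelled cells. With every BC thinned to 500 UMIs they were 38.8%, 51.5% and 72.4% in C57BL/6 and 59.7%, 60.8% and 61.3% in the knockout-labelled libraries.

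Ighd, the IgD chain of naive B cells, was counted in 704 BC. It stood at 281, 556 and 341 CPM of BC in C57BL/6, at 148, 612 and 555 CPM in the NOD controls, and at 583, 485 and 509 CPM in the knockout-labelled libraries. The low value of NOD control 1 is 1 UMI. Ighd did not pass the test (0.21 ± 0.30 on the log2 scale, edgeR adjusted p = 0.793). As a share of Ighm and Ighd UMIs together, Ighd made up 17.0%, 23.2% and 8.91% in C57BL/6, 25.8% and 23.8% in NOD control 2-1 and 2-2, and 18.9%, 17.2% and 18.1% in the knockout-labelled libraries, leaving out the cells rich in immunoglobulin. Both transcripts were caught together in 130, 111 and 117 of the knockout-labelled BC, against 20, 26 and 16 with Ighd alone, and in 71 and 104 BC of NOD control 2-1 and 2-2, against 38 and 32. In C57BL/6 1, 3 and 4 they were caught together in 6, 10 and 7 BC against 10, 4 and 1 with Ighd alone, so that C57BL/6 1 had the opposite order, as did NOD control 1 with 0 against 1.

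**Figure D1:**
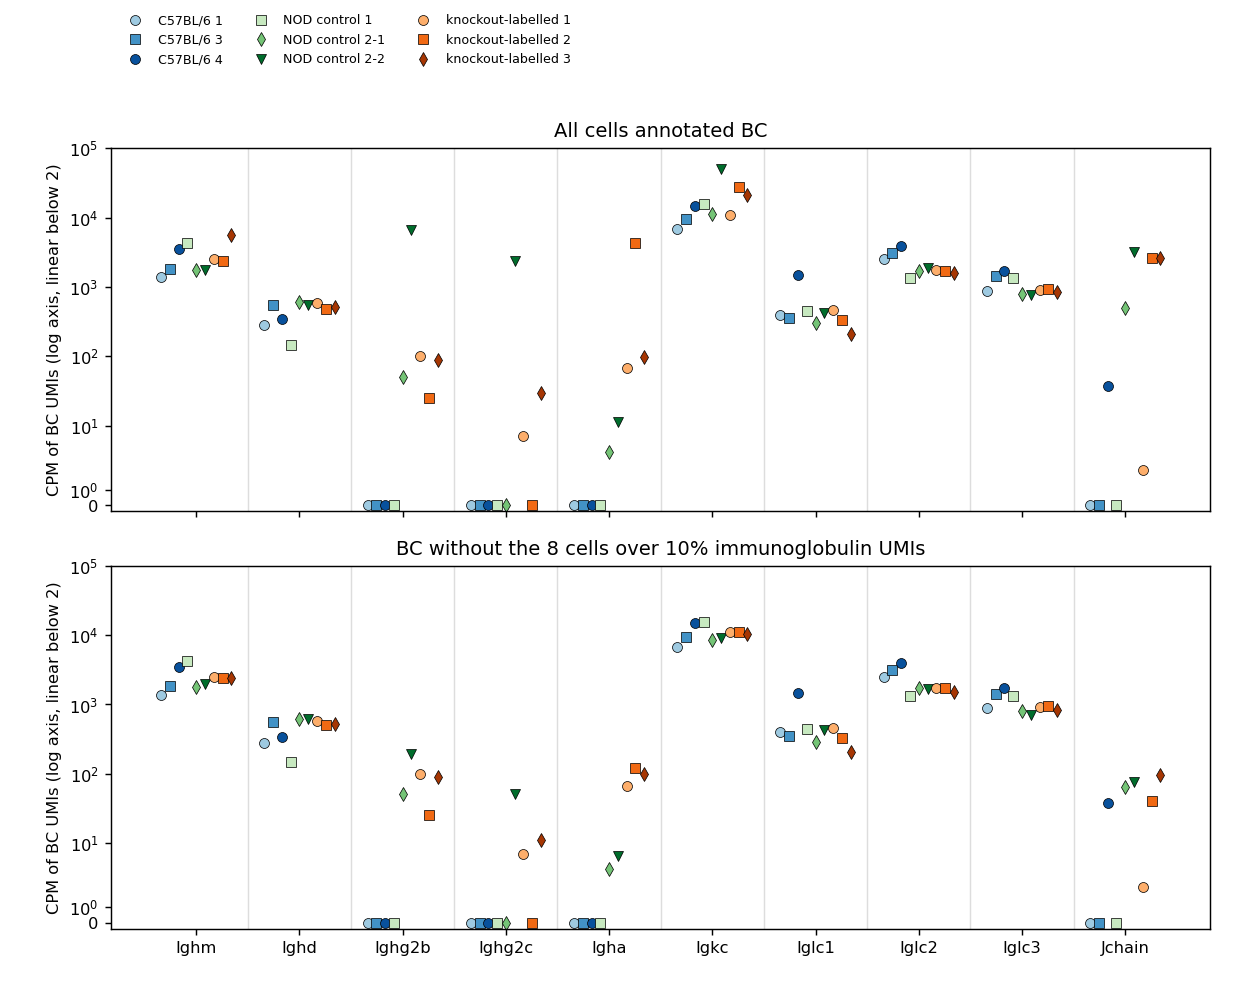
CPM of the 10 genes in the cells named BC, with 1 point per library, on a log axis that is linear below 2. The upper panel holds all BC and the lower panel leaves out the 8 cells over 10% immunoglobulin UMIs. Igkc spans 6794 to 50102 CPM with those cells and 6794 to 15526 CPM without them, and Ighg2b, Ighg2c and Igha sit at 0 in the 3 C57BL/6 libraries in both panels.

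A few BC in 4 of the 9 libraries were very rich in immunoglobulin RNA. In 8 of the 1990 BC (0.402%), immunoglobulin constant genes and Jchain made up 41.5% to 82.9% of all UMIs, while the next BC stood at 9.05%. The threshold of 10% was placed in this gap after the data were seen. The 8 cells held 57.4% of the immunoglobulin UMIs of all BC (40663 of 70879), and without NOD control 2-2, the library with 5 of them, the share was 40.5% (17356 of 42832). They were deep, with 2982 to 11554 UMIs, 5.54 to 11.9 times the BC median of their library. Outside BC, 0 of the named cells passed the same threshold. The barcode sequence of 1 of the 8 also occurred in another library.

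Each of the 8 cells was dominated by 1 heavy chain and by kappa. The leading heavy chain gene held 99.3% to 100% of a cell's heavy chain UMIs, and Igkc held 95.2% to 99.9% of its light chain UMIs. NOD control 2-1 had 1 such cell, with 591 UMIs of Ighg1. NOD control 2-2 had 5, of which 3 were led by Ighg1 with 889, 1602 and 1755 UMIs, 1 by Ighg2c with 805 and 1 by Ighg2b with 2281. The cell of knockout-labelled 2 was led by Igha with 1674 UMIs, beside 6823 of Igkc and 1047 of Jchain. The cell of knockout-labelled 3 was led by Ighm with 1228 UMIs, beside 4087 of Igkc and 943 of Jchain. No such cell was found in the 3 C57BL/6 libraries, where 160 BC were captured, in NOD control 1 or in knockout-labelled 1. With so few BC, a share as low as that over all BC was not detectable in C57BL/6.

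Plasma cell genes were present in these cells, with gaps. Jchain was counted in all 8, at 102 to 1047 UMIs, Mzb1, an endoplasmic reticulum chaperone of antibody-making cells, at 4 to 257, and Xbp1, the transcription factor of the secretory programme, at 2 to 21. These counts are not scaled by depth. The lowest Mzb1 count, 4 of 11554 UMIs, was that of the Igha-led cell of knockout-labelled 2, and other BC of that library also held up to 4. Derl3, a degradation factor of the endoplasmic reticulum, was seen in 5 of the 8, Sdc1, the surface marker CD138, in 3, Tnfrsf17, the survival receptor BCMA, in 3 and Prdm1, the factor that drives plasma cell fate, in 2. The B cell receptor component Cd79a was seen in 8 with 1 to 4 UMIs, the B cell marker Ms4a1 in 2, and Ighd in 0. The immunoglobulin share against the depth of each cell shows the group as a separate cloud.

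**Figure D2:**
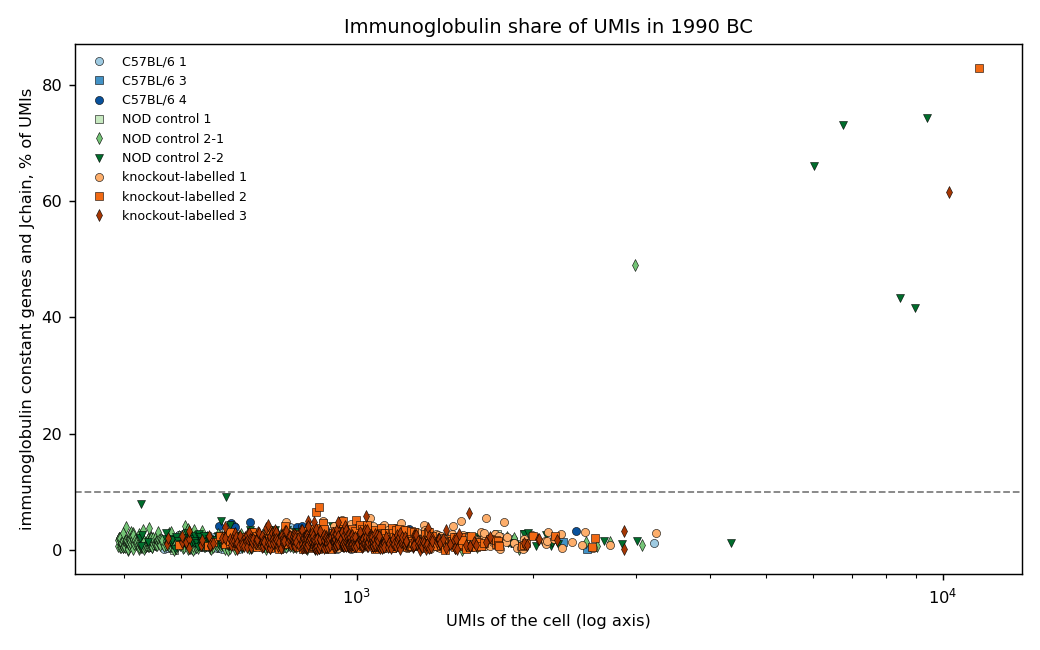
Each point is 1 of the 1990 BC, with its UMIs on a log axis and the share of them in immunoglobulin constant genes and Jchain on the other axis. The dashed line marks 10%, and the 8 cells above it lie between 41.5% and 82.9%.

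Class-switched B cells were counted cell by cell. A BC was called switched where it held at least 2 UMIs of Ighg1, Ighg2b, Ighg2c, Ighg3, Igha and Ighe together and more of these than of Ighm and Ighd. In C57BL/6 nerve 0 of 98, 0 of 33 and 0 of 29 BC met this rule. At a limit of 3 counts this allows shares of up to 3.06%, 9.09% and 10.3%. The upper ends of the exact intervals were 3.69%, 10.6% and 11.9%. In the knockout-labelled libraries 19 of 347 (5.48%, interval 3.33% to 8.42%), 7 of 381 (1.84%, 0.742% to 3.75%) and 14 of 379 (3.69%, 2.03% to 6.12%) met it. The mean was 3.67% ± 1.82 (SD, n = 3) against 0% in the 3 C57BL/6 libraries, with p = 0.1 in an exact permutation test (two-sided), which cannot go lower with 3 against 3. Each knockout-labelled library lay above each C57BL/6 library, but the shares that a count of 0 allows in C57BL/6 3 and 4 exceed all 3 knockout-labelled values. That in C57BL/6 1 exceeds the value of knockout-labelled 2, and the upper end of its exact interval also reaches that of knockout-labelled 3. A difference was not detectable at this depth in those pairs.

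The switched cells of the knockout-labelled libraries were mostly Ighg2b and Igha cells. In knockout-labelled 1, Ighg2b led in 13, Igha in 5 and Ighg1 in 1. Knockout-labelled 2 had 3 led by Ighg2b and 4 by Igha, and knockout-labelled 3 had 8 led by Ighg2b and 6 by Igha. Ighg2c led in 0 of these cells, and Ighe, the IgE chain, had 0 UMIs in all mouse libraries. Among the other named cells of these 3 libraries, 0 of 1193, 4 of 1403 (0.285%) and 0 of 1424 met the same rule, at median depths of 1200, 954 and 893 UMIs against 1192, 989 and 912 in BC, and the 4 were led by Igha. Of the cells that are not leukocytes 0 of 129, 2 of 152 (1.32%, interval 0.160% to 4.67%) and 0 of 147 met it, so that in knockout-labelled 2 the interval covered the share of BC. With every cell thinned to 500 UMIs the shares of BC were 2.31%, 1.32% and 1.59%, and 0 of the other cells met the rule.

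In NOD control 2-2 the share of such cells was as high outside BC as within. There 28 of 349 BC (8.02%, 5.40% to 11.4%) met the rule, but so did 131 of the 1613 other named cells (8.12%, 6.83% to 9.56%), at median depths of 794 and 777 UMIs. Cells that are not leukocytes met it in 98 of 1300 cases (7.54%). The share in BC was not above that of the other cells, and no switched population is read from it. At 500 UMIs a cell 5.95% of BC (3.67% to 9.04%) and 2.83% of other cells (2.03% to 3.84%) met it, and the intervals overlapped. In NOD control 2-1, 5 of 367 BC (1.36%) met it against 0 of 1618 other named cells, 3 led by Ighg1 and 2 by Ighg2b. The 7 BC of NOD control 1 held 0. These counts include the rich cells led by a switched gene, 5 in NOD control 2-2 and 1 each in 2-1 and knockout-labelled 2.

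The switched cells of the knockout-labelled libraries held less Fcer2a and, in 2 of the 3 libraries, more Mzb1 than the unswitched ones, given here as pooled counts without a test because cells of a library are not replicates. With the cells rich in immunoglobulin left out, 39 switched cells (47161 UMIs) were set beside 707 unswitched cells with 0 switched UMIs and at least 2 of Ighm and Ighd (777541 UMIs), for 15 genes. Fcer2a, the low-affinity IgE receptor CD23 of naive follicular B cells, stood at 21.2 CPM (interval 0.537 to 118) against 304 CPM (266 to 345). Mzb1 went the other way, with 1081 CPM (805 to 1422) against 649 CPM (594 to 709). Neither pair of pooled intervals overlapped. By library, Fcer2a stood at 0, 0 and 56.4 CPM in the switched cells of knockout-labelled 1, 2 and 3 (0, 0 and 1 UMIs) against 353, 266 and 276 CPM in the unswitched ones. Mzb1 stood at 1145, 604 and 1128 CPM against 680, 610 and 650 CPM, and was thus not higher in knockout-labelled 2, whose 6 switched cells held 3 of its UMIs. Cr2, the complement receptor CD21 (21.2 against 99.0 CPM), Fcmr, the IgM Fc receptor (191 against 386 CPM), Ms4a1 (827 against 1046 CPM), Cd79a (2714 against 2997 CPM) and Igkc (11938 against 11704 CPM) had overlapping intervals. Ighd was at 0 of 47161 UMIs in the switched cells, which their definition favours. The named genes of this paragraph were picked after their values were seen.

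Igkc, the kappa constant gene, had 48962 UMIs in all mouse libraries, 45215 of them in BC. Its level in all BC was 6794, 9511 and 14714 CPM in C57BL/6, 15526, 11448 and 50102 CPM in the NOD controls, and 10949, 27554 and 21180 CPM in the knockout-labelled libraries. The cells rich in immunoglobulin held 26360 of the BC UMIs of Igkc. Without them NOD control 2-1 and 2-2 came to 8362 and 9120 CPM and the knockout-labelled libraries to 10949, 10975 and 10468 CPM. The 3 knockout-labelled libraries then lay within the range of the C57BL/6 libraries. Igkc was not called between these groups (0.76 ± 0.41 on the log2 scale, edgeR adjusted p = 0.353), and its estimate was -0.14 without the 8 cells. Without C57BL/6 1, Igkc was called higher (0.93 ± 0.15, edgeR adjusted p = 1.60e-05). The share of all genes called in that fit is given with the lambda genes. That fit kept the cells rich in immunoglobulin, and its groups overlapped. Knockout-labelled 1, at 10949 CPM, lay below the highest C57BL/6 value of 14714 CPM. Without the rich cells, all 3 knockout-labelled libraries lay between the remaining C57BL/6 values of 9511 and 14714 CPM.

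Among the lambda genes, Iglc2 was the one counted higher in each C57BL/6 library than in each NOD library. It stood at 2496, 3131 and 3906 CPM of BC in C57BL/6, 1331, 1707 and 1862 CPM in the NOD controls, and 1731, 1679 and 1585 CPM in the knockout-labelled libraries. All 3 C57BL/6 libraries were above all 6 others, but NOD control 1 rests on 9 Iglc2 UMIs, with an interval (609 to 2526 CPM) that covers the value of C57BL/6 1. Of all genes tested, 5.97% were likewise lower in each knockout-labelled than in each C57BL/6 library (25.4% were higher in each). Iglc3 stood at 886, 1434 and 1706 CPM, at 1331, 797 and 775 CPM, and at 912, 926 and 834 CPM in the same order, and here the groups overlapped. Iglc1 stood at 399, 351 and 1479 CPM, at 444, 298 and 423 CPM, and at 460, 337 and 210 CPM, with C57BL/6 4 far above the rest. None of the 3 passed edgeR's threshold between knockout-labelled and C57BL/6 BC: Iglc2 differed by -1.15 ± 0.35 on the log2 scale (adjusted p = 0.0761), Iglc1 by -1.24 ± 0.39 (adjusted p = 0.0846) and Iglc3 by -0.78 ± 0.33 (adjusted p = 0.218). DESeq2's Wald test called Iglc2 (adjusted p = 1.53e-09) and Iglc3 (adjusted p = 0.000801) lower. Without C57BL/6 1, edgeR called Iglc2 (-0.87 ± 0.15, adjusted p = 4.25e-05) and Iglc1 (adjusted p = 0.0269) lower, beside 3.09% of all genes in that fit, and without C57BL/6 3 it called Iglc1 (adjusted p = 0.00554), beside 4.06%.

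As a share of all light chain UMIs of BC, the lambda genes held 35.8%, 34.1% and 32.5% in C57BL/6, and 22.1%, 9.65% and 11.04% in the knockout-labelled libraries. The means were 34.1% ± 1.62 (SD, n = 3) and 14.3% ± 6.81 (SD, n = 3), with p = 0.1 in the same exact test. In the NOD controls the shares were 16.7%, 19.7% and 5.76%. The low values of NOD control 2-2 and of knockout-labelled 2 and 3 are those of libraries with kappa cells rich in immunoglobulin, and NOD control 2-1 held 1 such cell. Without these cells the knockout-labelled libraries held 22.1%, 21.3% and 19.7%, NOD control 2-1 and 2-2 held 25.2% and 23.7%, and the difference of 13.1 percentage points from C57BL/6 again had p = 0.1 in the exact permutation test. UMIs count transcripts and are not scaled by length, so these are shares of captured ends.

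In the C57BL/6 and knockout-labelled libraries the share of cells led by lambda was lower than the share of UMIs. BC with more lambda than kappa UMIs made up 27.6%, 15.6% and 10.3% of C57BL/6 BC with at least 2 light chain UMIs, 10.1% and 8.38% in NOD control 2-1 and 2-2, and 6.38%, 6.91% and 8.09% in the knockout-labelled libraries. The C57BL/6 range was wide, and the intervals of C57BL/6 3 (5.28% to 32.8%) and 4 (2.19% to 27.4%) covered every knockout-labelled value. Of 125 lambda-led BC with at least 5 light chain UMIs, Iglc2 led in 83, Iglc1 in 31 and Iglc3 in 11. Iglc3 was also seen in 55 of the 83 Iglc2-led cells, and Iglc2 in 28 of the 31 Iglc1-led cells.

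Lambda UMIs were common in kappa cells too. Of BC led by kappa with at least 5 Igkc UMIs, 32 of 34, 25 of 26 and 21 of 25 in C57BL/6 carried at least 1 lambda UMI, as did 258 of 292, 255 of 299 and 216 of 270 in the knockout-labelled libraries. In C57BL/6 1 these 34 cells held Iglc2 in 28, Iglc3 in 20 and Iglc1 in 7. Outside BC these UMIs were few in that library: its 1096 other named cells, at a median of 759 UMIs, held 3 Iglc2 UMIs in all, and those of C57BL/6 3 and 4 held 1 and 0. A kappa-led BC of C57BL/6 1 held 2.06 Iglc2 UMIs on average beside 10.0 of Igkc.

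**Figure D3:**
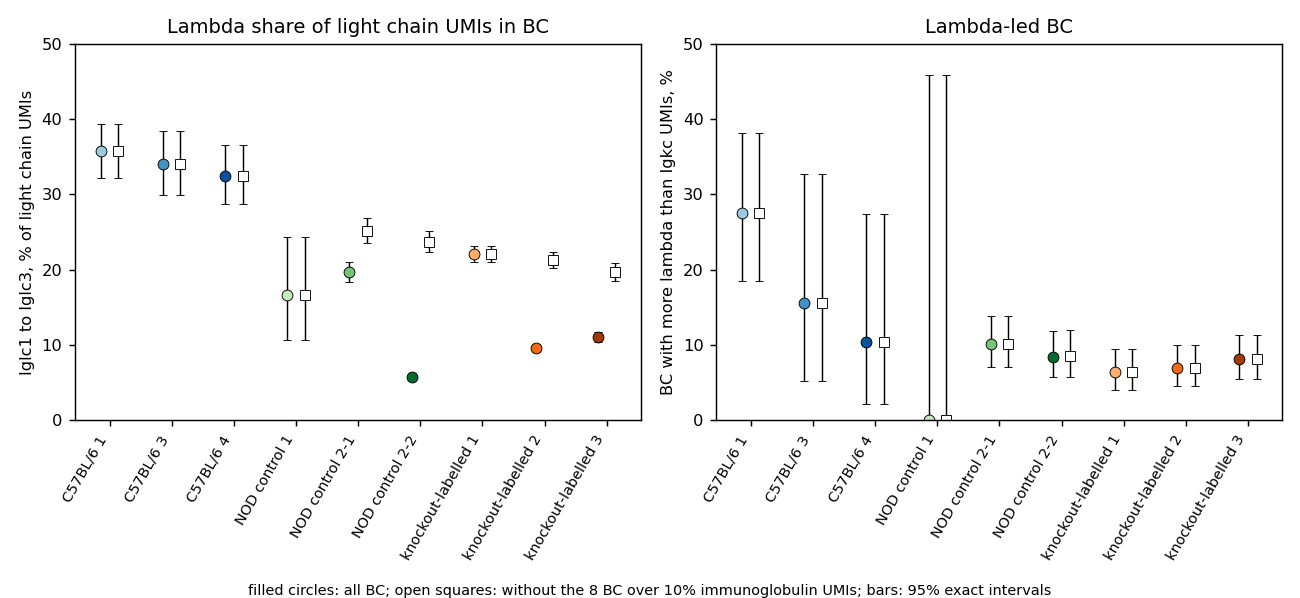
The left panel gives the share of Iglc1, Iglc2 and Iglc3 among light chain UMIs of BC, and the right panel the share of BC with more lambda than Igkc UMIs, by library with 95% exact intervals. Filled circles are all BC and open squares leave out the 8 cells over 10% immunoglobulin UMIs, and C57BL/6 is highest in the left panel at 32.5% to 35.8%.

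Igha, the IgA heavy chain, was counted in the BC of the knockout-labelled libraries and not in those of C57BL/6. It was at 0 in the C57BL/6 libraries and at 67.7, 4261 and 96.9 CPM (29, 1721 and 36 UMIs) in the knockout-labelled ones, and at 0, 4.2 and 11.4 CPM in the NOD controls. Against the limit of 3 counts over the pooled C57BL/6 BC (23.4 CPM), Igha was at least 63.4-fold higher in the pooled knockout-labelled BC. Without the cells rich in immunoglobulin it was at 67.7, 120 and 99.6 CPM, and pooled at least 4.05-fold above that limit. In the named cells outside BC of the same libraries it was at 2.87, 68.0 and 3.20 CPM (5, 113 and 5 UMIs), so that in knockout-labelled 2 cells other than B cells stood at 68.0 CPM beside 120 in the other BC. Without that library the BC of knockout-labelled 1 and 3 were together at 82.3 CPM, at least 3.52-fold above the pooled C57BL/6 limit. These folds pool cells over libraries and leave out the counting error of the knockout-labelled values. By library, the limits of a count of 0 were 44.3, 87.8 and 114 CPM in C57BL/6 1, 3 and 4. Those of C57BL/6 3 and 4 exceed the value of knockout-labelled 1, and that of C57BL/6 4 also exceeds the value of knockout-labelled 3. The upper end of the exact interval of C57BL/6 3 (108 CPM) exceeds the value of knockout-labelled 3 too. A difference in Igha was not detectable at this depth in those pairs.

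Of the 10 genes, 7 had enough counts for the edgeR test in BC, where 4.12% of all 2916 genes tested were called (2.33% higher and 1.78% lower). The 1 member called was Igha, with an adjusted p of 0.0376, and of 0.0406 without the cells rich in immunoglobulin. Igha was at 0 in all C57BL/6 BC and entered the fit through the knockout-labelled libraries alone, so its call is no test of a difference, and DESeq2 gave no p for it. With knockout-labelled 1, 2 or 3 left out, it had too few counts to be tested, and the count of members called was 1 (Jchain), 0 and 0, beside 5.8%, 6.15% and 6.11% of all genes. Leaving out C57BL/6 1, 3 or 4 gave 5, 3 and 2 members called, beside 3.09%, 4.06% and 3.83% of all genes. Igha and Jchain, each at 0 or 1 UMI in the C57BL/6 libraries, were among them each time, and the others were Igkc, Iglc1 and Iglc2 without C57BL/6 1 and Iglc1 without C57BL/6 3. Strain and label cannot be told apart here, since the knockout-labelled mice are NOD and the comparison with NOD control BC could not be run.

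Ighg2b, Ighg2c and Jchain had too few counts in enough libraries to be tested. With no filter on low counts edgeR called Ighg2b and Jchain higher, against C57BL/6 libraries at 0 or 1 UMI. Ighg2b was at 0 in the BC of the C57BL/6 libraries and at 100, 24.8 and 88.8 CPM in the knockout-labelled ones. Pooled over the 3 libraries it was at least 3.05-fold above the limit of the pooled C57BL/6 BC. By library, the limit of C57BL/6 4 (114 CPM) exceeds all 3 values, and that of C57BL/6 1 (44.3 CPM), the lowest, exceeds the value of knockout-labelled 2. The upper end of the exact interval of C57BL/6 3 (108 CPM) also exceeds all 3 values. In the NOD controls Ighg2b was at 0, 50.3 and 6713 CPM, the last falling to 190 CPM without the cells rich in immunoglobulin. Ighg2c was at 0 in C57BL/6, at 7.0, 0 and 29.6 CPM in the knockout-labelled libraries, and at 0, 0 and 2351 CPM in the NOD controls, so that NOD control 2-2 stood apart.

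Jchain, the polymer-forming chain, was counted almost wholly in the 8 cells. It was at 0, 0 and 37.9 CPM of BC in C57BL/6 (the last being 1 UMI), at 0, 491 and 3152 CPM in the NOD controls, and at 2.3, 2632 and 2632 CPM in the knockout-labelled libraries. The 8 cells held 3170 of the 3262 Jchain UMIs of BC (97.2%). Without them NOD control 2-1 and 2-2 stood at 63.7 and 77.4 CPM and the knockout-labelled libraries at 2.3, 40.8 and 96.9 CPM. Knockout-labelled 1, which had no such cell, held 1 Jchain UMI in 347 BC.

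Of the other genes of the B cell programme, 1 was called between knockout-labelled and C57BL/6 BC. Of 12 B cell receptor and coreceptor genes, all tested, 0 were called by edgeR, 1 had an unadjusted p under 0.05 and DESeq2 called 1. Their median log2 difference was 0.24, beside 0.13 for all genes tested. Cd79a, a signalling chain of the receptor, stood at 1876, 2312 and 3337 CPM in C57BL/6 and 2979, 2637 and 2525 CPM in the knockout-labelled libraries, and Ms4a1, the surface protein CD20, at 369, 995 and 1251 CPM against 973, 995 and 826 CPM. Cd79b, the partner of Cd79a, was at -0.61 ± 0.33 on the log2 scale (edgeR adjusted p = 0.357). Of 7 B cell transcription factors, all tested, 0 were called, 0 had an unadjusted p under 0.05 and DESeq2 called 0, with a median of -0.10. Ebf1, which specifies the lineage, stood at 945, 1463 and 1479 CPM against 1211, 1414 and 1370 CPM.

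Of 14 plasma cell and secretion genes 8 were tested, 1 was called and 2 had an unadjusted p under 0.05, and DESeq2 called 2. The call was Sec11c, a catalytic subunit of signal peptidase, which fell from 207, 380 and 569 CPM in C57BL/6 to 166, 200.5 and 205 CPM (-1.11 ± 0.29, edgeR adjusted p = 0.0331). The highest knockout-labelled value and the lowest C57BL/6 value lay next to each other. Of 11 class switching and germinal centre genes 2 were tested and 0 called, with 0 at an unadjusted p under 0.05 and 0 by DESeq2. Cd40, the receptor for T cell help, stood at 44.3, 117 and 75.8 CPM against 170, 149 and 156 CPM (0.85 ± 0.44, edgeR adjusted p = 0.331). Of 10 memory, marginal zone and naive markers 5 were tested and 0 called, with 0 at an unadjusted p under 0.05 and 0 by DESeq2. Pigr and Fcgrt, which carry antibody across cells, had 3 and 47 UMIs in these BC and were not tested.

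Outside B cells, the immunoglobulin share of UMIs differed by library. The 10 genes took 0.00358%, 0.00212% and 0.0112% of UMIs in the named cells other than BC of C57BL/6, 0.00372%, 0.0386% and 0.126% in NOD control 1, 2-1 and 2-2, and 0.0655%, 0.0895% and 0.0843% in the knockout-labelled libraries. The means of knockout-labelled and C57BL/6 libraries were 0.0798% ± 0.0126 (SD, n = 3) and 0.00563% ± 0.00488 (SD, n = 3), with p = 0.1 in the exact permutation test. Without Ighm they were 0.0534% and 0.000917%, again with p = 0.1 by that exact test. The mixtures of cells differed. Cells that are not leukocytes were 129 of 1193, 152 of 1403 and 147 of 1424 of the named cells outside BC in the knockout-labelled libraries. In C57BL/6 they were 892 of 1096, 3342 of 3580 and 197 of 362. In these cells alone the mean shares were 0.0438% and 0.00175%, with p = 0.1 in the exact permutation test. BC made up 22.5%, 21.4% and 21.0% of named cells in the knockout-labelled libraries and 8.21%, 0.913% and 7.42% in C57BL/6.

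Igkc was near 0 outside BC in C57BL/6 and was found in nerve cells and leukocytes alike in NOD control 2-2. In C57BL/6 1, 3 and 4 the named cells other than BC held 6, 16 and 1 Igkc UMIs, and those of NOD control 1 held 0 in 1393 cells. NOD control 2-1 and 2-2 held 244 and 1315, and the knockout-labelled libraries 481, 697 and 639. In NOD control 2-2 it stood at 779 CPM in the cells named nmSC, 860 in mySC, 664 in fibro, 926 in EC, 602 in MC and 1084 in CD4. In the knockout-labelled libraries it stood at 101, 298 and 202 CPM in nmSC and 262, 430.5 and 444 CPM in CD4. An Igkc UMI was found in 52.0% of nmSC of NOD control 2-2 and in 98.3% of its BC, at median depths of 818 and 794 UMIs. Thinned to 500 UMIs the shares were 33.3% and 96.4%.

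In the 3 libraries with rich cells led by a switched gene, the switched UMIs outside BC had mostly the isotypes of those cells. In NOD control 2-2, Ighg1 made up 57.9% of them in the 5 rich cells, 59.1% in the other BC and 60.2% (interval 56.5% to 63.8%) in the named cells outside BC. Ighg2b made up 31.1%, 30.6% and 29.5% in the same order, and Ighg2c 10.97%, 8.29% and 10.3%. In NOD control 2-1, whose 1 rich cell was led by Ighg1, this gene held 94.8% of the 58 UMIs outside BC. In knockout-labelled 2, whose rich cell was led by Igha, this gene held 97.4% of the 116 UMIs outside BC and 77.0% of those in the other BC. Knockout-labelled 1, without a rich cell, and knockout-labelled 3, with one led by Ighm, had 7 and 8 switched UMIs outside BC. The other BC of both were mixtures of Ighg2b (50.6% and 42.9%) and Igha (34.1% and 46.8%).

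**Figure D4:**
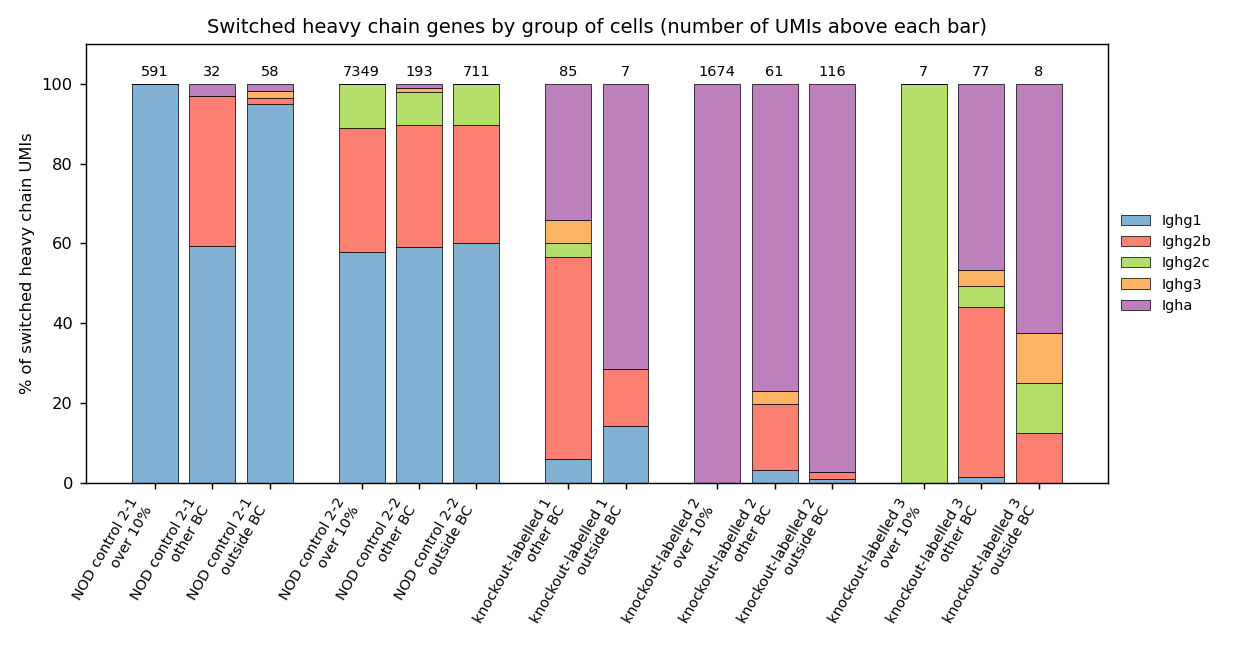
Share of each switched heavy chain gene among switched heavy chain UMIs, by library and group of cells: the BC over 10% immunoglobulin UMIs, the other BC, and the named cells outside BC. The number of UMIs stands above each bar, and the 3 bars of NOD control 2-2 are alike, with Ighg1 at 57.9%, 59.1% and 60.2%.

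The ratio of Jchain to Igkc in the named cells outside BC lay between that of the rich cells and that of the other BC in each of the 4 libraries with rich cells. Counted as Jchain UMIs per 1000 Igkc UMIs, NOD control 2-2 held 73.4 in the rich cells, 71.5 in the named cells outside BC (94 UMIs) and 8.49 in the other BC. NOD control 2-1 held 134, 41.0 (10 UMIs) and 7.62 in the same order. Knockout-labelled 2 held 153, 44.5 (31 UMIs) and 3.72, and knockout-labelled 3 held 231, 106 (68 UMIs) and 9.25. By plain difference the value outside BC was nearer to the rich cells in NOD control 2-2 and nearer to the other BC in the 3 others. By ratio it was nearer to the rich cells in all 4 libraries. No interval was computed for these values, and some rest on few Jchain UMIs. Knockout-labelled 1, without a rich cell, held 6.24 outside BC (3 UMIs) and 0.213 in BC (1 UMI).

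Ighm was found in cells that had no Igkc. In C57BL/6 the cells named TC, MP and MC held 0 Igkc UMIs in 3 libraries. Ighm was nevertheless counted in 48 of 333 TC, 44 of 228 MP and 5 of 46 MC, with 60, 53 and 6 UMIs. In TC it stood at 67.2, 146 and 286 CPM in C57BL/6 1, 3 and 4, and in MP at 164, 92.8 and 98.4 CPM. Ighm made up 79.3%, 87.5% and 98.1% of the Ighm and Igkc UMIs of all named cells outside BC in these libraries, against 16.8%, 16.2% and 19.2% in BC. NOD control 1 gave the same picture, with 42 Ighm and 0 Igkc UMIs outside BC. Ighd, which B cells transcribe with Ighm, was at 0 in the TC, MP and MC of C57BL/6. Cd79a had 0 UMIs in TC and MC and 1 in MP. Ighm was not confined to leukocytes: the 1123 cells named fibro of C57BL/6 3 held 51 Ighm UMIs in 41 cells, beside 1 of Igkc.

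In the NOD libraries the Ighm level of leukocytes was of the same order. In CD4 cells it stood at 393, 296 and 337 CPM in NOD control 1, 2-1 and 2-2 and at 283, 247 and 369 CPM in the knockout-labelled libraries, and in MC at 244, 255 and 241 CPM and at 265, 317 and 328 CPM. In nmSC it was lower, at 0, 37.6 and 41.7 CPM and at 40.5, 74.6 and 67.4 CPM. Without the cells holding any UMI of Cd79a, Cd79b or Ms4a1, the knockout-labelled CD4 cells stood at 289 CPM against 299 with them, and MC at 282 against 303.

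The cells named pDC, plasmacytoid dendritic cells, had Ighm and Iglc3 at levels near those of B cells. There were 55, 9 in the NOD controls and 46 in the knockout-labelled libraries, and 53 held Ighm, with 314 UMIs in all against 4 of Ighd. Their Ighm level was 2538, 2355 and 2044 CPM in knockout-labelled 1, 2 and 3, where BC stood at 2499, 2367 and 5615. The markers Siglech (996 CPM), Bst2 (3197 CPM) and Ccr9 (980 CPM) were present in the knockout-labelled pDC. Iglc3 stood at 1313, 1187 and 1058 CPM in these pDC and 912, 926 and 834 CPM in the BC of the same libraries, while Iglc2 was at 328, 603 and 146 CPM against 1731, 1679 and 1585. The pDC of these libraries held 60, 61 and 29 UMIs of Iglc3 beside 15, 31 and 4 of Iglc2. Over all 55 pDC, Iglc3 made up 75.5% (interval 69.1% to 81.2%) of the UMIs of both genes, against 33.0% (31.7% to 34.3%) over all BC. In the 47 pDC without a UMI of Cd79a, Cd79b or Ms4a1, Ighm stood at 2364 CPM and Iglc3 at 1209 CPM, and 20 of them held at least 3 Iglc3 UMIs. The near identity of Iglc2 and Iglc3 applies to both cell types, and its part in the difference was not tested.

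**Figure D5:**
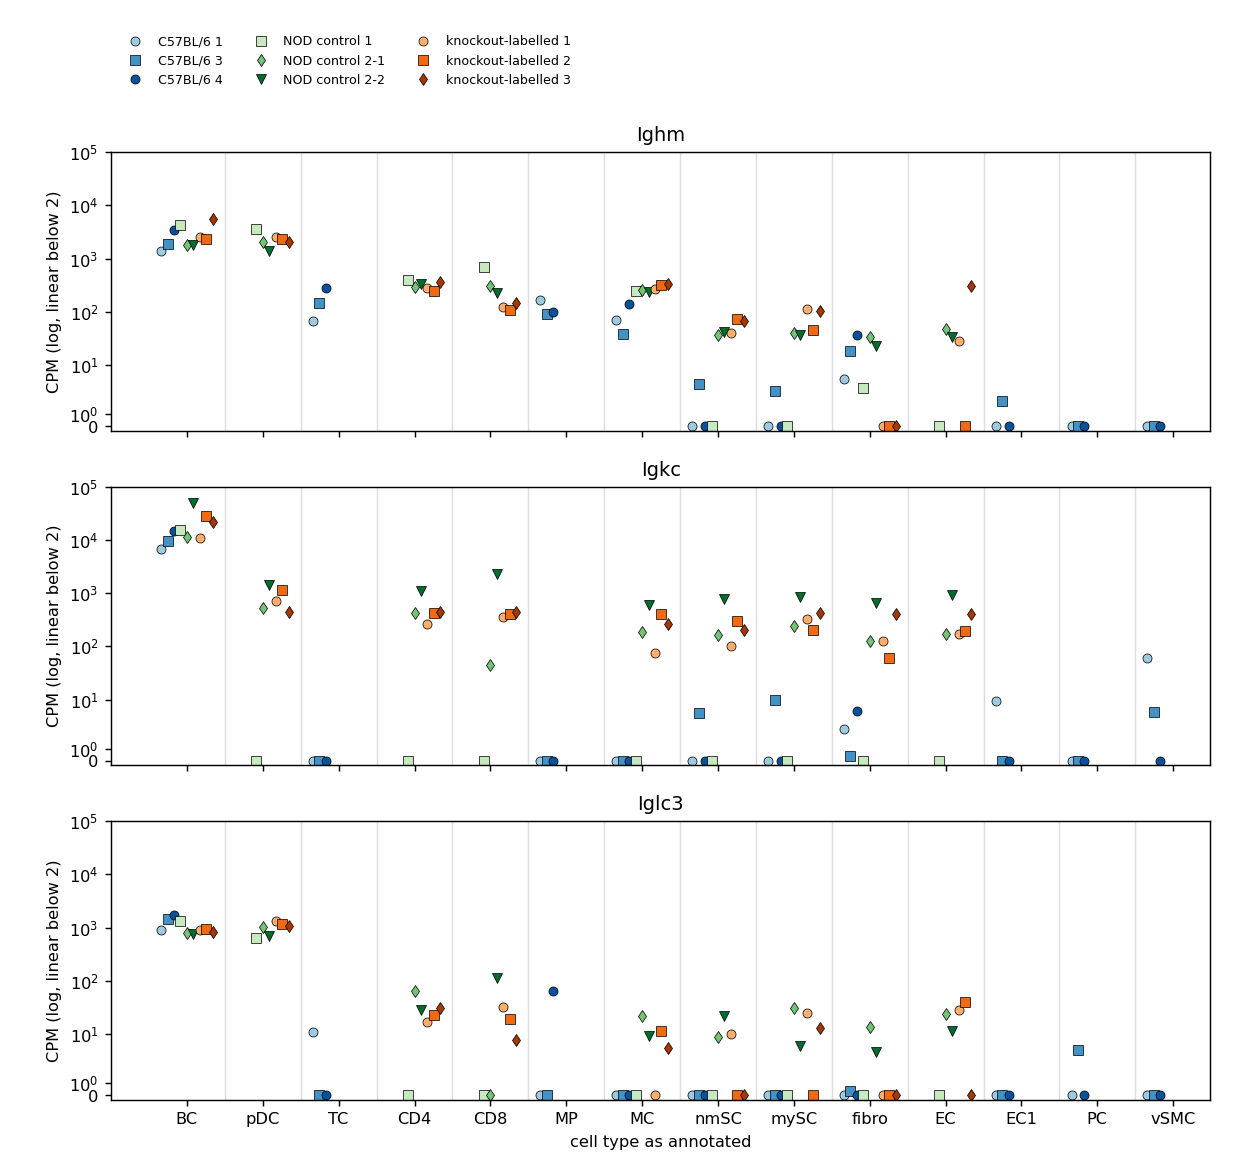
CPM of Ighm, Igkc and Iglc3 in each annotated cell type, with 1 point per library, on log axes that are linear below 2. Ighm and Iglc3 in pDC lie at the level of BC, and Igkc in the C57BL/6 cells named TC, MP and MC is at 0 while Ighm is not.

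Few members could be tested outside B cells, and 1 was called. In CD4 cells, knockout-labelled against NOD control, 5 of the 10 genes were tested and Igkc was called lower (-0.90 ± 0.24, edgeR adjusted p = 0.00446), 1 of 5 beside 10.8% of 6866 genes (6.67% higher and 4.17% lower). Its levels were 0, 424 and 1084 CPM in NOD control 1, 2-1 and 2-2 and 262, 430.5 and 444 CPM in the knockout-labelled libraries. NOD control 1, with 39 cells, lay below all 3 of them, 2-2 above all 3 and 2-1 among them. Without NOD control 2 the estimate was 10.58, called higher against a group at 0. It was not called by DESeq2 (adjusted p = 0.982), without knockout-labelled 1 (0.448) or 3 (0.0560 by edgeR), with the replicate number as a block (0.996), or with the knockout-labelled libraries summed (1.00). With NOD control 2-1 and 2-2 kept separate it was called (-1.04 ± 0.29, edgeR adjusted p = 0.00837). Without NOD control 1 the estimates of Igkc, Ighg2b and Jchain were lower and that of Igha higher. NOD control 2 is then the 1 control sample, so calls in that fit are no test. Igha had 0 UMIs in the CD4 cells of NOD control 2-1 and 2-2, and Ighg2b had 0 and 42. Without knockout-labelled 3, Jchain was called lower.

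In MC, knockout-labelled against NOD control, 0 of 3 members tested were called by edgeR, beside 16.3% of all genes tested (8.55% higher and 7.78% lower), and Ighm differed by 0.19 ± 0.26 on the log2 scale. In nmSC, mySC and EC 1 member was tested each, Igkc, and 0 were called, beside 3.9% of genes in nmSC (2.38% higher and 1.52% lower), 11.4% in mySC (5.61% and 5.79%) and 2.6% in EC (1.12% and 1.49%). The estimates were -0.35 ± 1.07, -0.86 ± 0.44 and -0.82 ± 0.60. In these 4 cell types 0 members had an unadjusted p under 0.05, and DESeq2 called 0. Leaving out NOD control 1 or 2 leaves 1 control sample, so the calls of those fits are no test. Without NOD control 2, Igkc in MC and nmSC stood against NOD control 1 at 0. Between NOD control and C57BL/6, 0 of the 10 genes had enough counts in nmSC, fibro or EC, where 2.28% (1.38% higher and 0.897% lower), 1.82% (0.941% and 0.879%) and 1.96% (0.909% and 1.05%) of genes tested were called. Leaving out NOD control 1 made 6, 2 and 1 members called higher there, beside 1.76%, 1.86% and 1.31% of all genes. These members had too few counts in the fit of all samples, and the calls rest on NOD control 2 as the 1 NOD sample, so they are no test. The myeloid cells of that comparison were those named MP and MC in C57BL/6 but MC and pDC in the NOD controls. Ighm was the 1 member tested there and was not called (1.36 ± 0.42, edgeR adjusted p = 0.249, unadjusted p = 0.0108), beside 1.3% of genes (0.652% in each direction), and DESeq2 called 0. In the NOD controls Ighm stood at 2255 CPM in pDC and 246 CPM in MC, and the part of the pDC in the estimate was not tested. Leaving out C57BL/6 1 gave 1 call, Ighm, beside 2.71% of all genes. Leaving out NOD control 1 left NOD control 2 as the 1 NOD sample. Igkc entered that fit through it alone, with 0 UMIs in the MP and MC of C57BL/6, so its call is no test.

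The genes most like a member were sought by Pearson correlation of log2(CPM + 1) over 64 sums of at least 20 cells of 1 type in 1 library. Among the genes closest to Igkc were Cd79a (0.87), Ms4a1 (0.85), Mzb1 (0.84) and Cd79b (0.82). Ighm was closest to Cd37 (0.91), Rac2 (0.89), Stk17b (0.89), Ikzf1 (0.86) and Ncf4 (0.86), several of them genes of leukocytes at large. These sums share libraries and depth, so the values are a description.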

How the data were processed

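Live-sorted nerve cells of 9 mouse libraries were measured by droplet 3′ RNA-seq. The deposited files hold UMI counts per gene and barcode with the authors' cell type names, made with Cell Ranger 3.0.2 on mm10 (Rnor_6.0 for rat), per the submitters' processing notes. The sources used here name neither the annotation release nor a treatment of doublets, and no doublet caller was run. Sequencing ran on either of 2 instruments, and which library ran on which is not stated.

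Counts were summed per sample and cell type, with NOD control 2-1 and 2-2 as 1 sample, and tested with edgeR 4.0.16 (R 4.3.3; TMM factors, quasi-likelihood test, filterByExpr with a minimum count of 10, Benjamini-Hochberg adjustment over all genes tested, threshold 0.05) where every sample held at least 20 cells. DESeq2 1.42.0 was an alternative. The fits were tested on simulated data. Shares were compared with exact permutation tests in Python 3.11.15 (scipy 1.17.1). CPM are counts of a gene over all UMIs of the cells named, and standard errors come from the fold change and its F statistic. The limit of a count of 0 was set at 3 counts, and cells under 500 UMIs were left out of thinned values. Sequences were read from GRCm38 with GENCODE vM21. All 10 members are given, at most 4 genes of each other list, chosen from those tested, and the 5 genes most like a member among genes with at least 200 UMIs. The members, lists and tests were chosen with earlier results of these data known. Other settings tried were RLE factors, no filter on low counts, library sizes without immunoglobulin genes, left-out samples, summed or separated libraries, a replicate block, and the removal of cells with B cell marker UMIs. Some genes of the lists are not reported here.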

Additional observations from a re-analysis of the deposited data

Results flagged for a closer look

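Barcodes to which the authors gave no cell type name entered no comparison, and Igkc was counted in some of them above the level that a count of 0 allows. In NOD control 2-2 it stood at 4432 CPM (242 UMIs in 38 barcodes, 94 of them in 1 barcode). In knockout-labelled 1, 2 and 3 it stood at 665.5, 588 and 450.5 CPM (41, 35 and 20 UMIs in 35, 41 and 47 barcodes). In C57BL/6 3 it stood at 41.0 CPM, with all 9 UMIs in 1 of 187 barcodes. No group held the 4 samples needed to check for a sample that stands apart.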

How the results depend on the processing

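Of 150 alternatives to 13 results of a comparison, 116 left the result in place, 32 moved it and 2 turned its direction. Part of the 116 could hardly have come out otherwise. The exact permutation test on shares cannot give a p below 0.1 with 3 against 3 samples, or below 0.2 with 2 against 3. No alternative for a share could therefore pass the threshold for calls. In nmSC, fibro and EC of NOD control against C57BL/6, 0 members were tested in the main fit. An alternative that again tested none there kept a count of 0 without a test. The shares of switched BC, lambda UMIs and immunoglobulin UMIs outside BC kept their direction, ranging over left-out samples from 2.77 to 4.58, from -23.8 to -17.6 and from 0.0693 to 0.0813 percentage points. The count of members called in BC was 2, both lower, with DESeq2, which gave no p for Igha, beside 6.14% of all genes. It was 3 with no filter on low counts, beside 1.61%, and 0 to 5 over left-out samples. In CD4 it was 0 with DESeq2, beside 2.62% of all genes, and 4 with no filter, beside 5.68%. It was 2 there without cells holding a B cell marker UMI, beside 9.88%. Leaving out knockout-labelled 1, 2 or 3 gave 0, 1 and 1 in CD4, beside 9.83%, 9.89% and 9.25%. With no filter the count was 1 in MC, nmSC and mySC (knockout-labelled against NOD control), beside 4.37%, 1.14% and 1.4% of all genes. For NOD control against C57BL/6 with no filter it was 6, 5, 2 and 2 in nmSC, fibro, EC and myeloid cells, beside 1.8%, 1.61%, 0.612% and 0.643%. Fits with no filter admit members at or near 0 in 1 group, and such calls are no test. In mySC the count was 1 without cells holding a B cell marker UMI (knockout-labelled against NOD control), beside 13.8% of all genes. Over left-out samples it ranged from 0 to 1 in MC, nmSC, mySC and EC, and from 0 to 6, 0 to 2, 0 to 1 and 0 to 1 in nmSC, fibro, EC and myeloid cells of the strain comparison. Fits that leave out a NOD control sample hold 1 NOD control sample, so their calls are no test. Of 224 alternatives for single genes, 188 kept call and direction, 4 lost the call, 14 gained one and 18 turned the direction. In BC, Ighm was -0.067 and Igkc -0.14 on the log2 scale without the cells over 10% immunoglobulin UMIs, and Ighm ranged from -0.0038 to 0.91 over left-out samples. In CD4, left-out samples gave -0.40 to 0.18 for Ighm, -1.29 to 10.58 for Igkc, -0.75 to 7.37 for Iglc2, -1.12 to 6.59 for Iglc3 and -1.94 to 6.77 for Jchain. Igkc ranged from -0.87 to 8.27 in MC, -1.36 to 8.76 in nmSC, -1.18 to 7.16 in mySC and -1.22 to 5.85 in EC. The highest value of each was without NOD control 2, which leaves NOD control 1 alone, with 0 Igkc UMIs outside BC, and assumes that it varies like the other group. Iglc3 in CD4 was 1.06 without cells holding a B cell marker UMI, and Igkc in MC was 0.15 with DESeq2. Where not stated, the cause was not tested. Pairing by replicate number was checked for numbers 1 and 2 of knockout-labelled and NOD control samples. In CD4, MC, nmSC, mySC and EC, their deviations of log CPM from the group means correlated at -0.03 to 0.12. With 2 NOD control samples the control deviations mirror each other, so this check was weak. With the replicate number as a block, 0 members were called in CD4, and Igkc was 0.035 in CD4, 0.27 in MC and 0.12 in nmSC. The comparisons of BC with NOD control were not run, since NOD control 1 held 7 BC. The removal of cells rich in immunoglobulin and of Ighm, and the values of Igha without knockout-labelled 2 and of the rich cells without NOD control 2-2, were chosen after seeing the data.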
